A study of Mus musculus with 20 samples.

Results

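Eif4a2, Rfc4, Kng1 and Kng2 are 4 neighbours of Adipoq on mouse chromosome 16, taken from 36611 genes measured in the inguinal fat pad (iWAT), a subcutaneous white adipose depot. They were chosen by name for their position beside Adipoq, with the difference of the first pair between genotypes already seen in these libraries, so all comparisons of genotype are given for them as values, without a test. RNA was sequenced from 20 female mice aged 6 months after 15 weeks on diet, 5 per group. Ad-Tmem120a-/- mice carried Tmem120a fl/fl alleles, with exons 2 and 3 flanked by loxP sites, together with an Adipoq-Cre transgene in which the adiponectin promoter drives Cre in adipocytes. Controls, labelled wild type, were Tmem120a fl/fl littermates without Cre. Mice of each genotype ate either a diet with 10.5% fat (LFD, low fat) or one with 58% fat (HFD, high fat). All 10 knockout mice carried the transgene and none of the 10 controls did, so an effect of the transgene and an effect of losing Tmem120a cannot be told apart in these groups. Whether the transgene carries genes next to Adipoq is not given in the sources used here.

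Large genomic constructs such as bacterial artificial chromosomes bring a gene's own regulatory sequence into a transgene, and can bring intact neighbouring genes with it. Eif4a2 encodes a DEAD-box RNA helicase of the eIF4A family, the part of the cap-binding complex eIF4F that unwinds messenger RNA for translation. Rfc4 encodes a subunit of replication factor C, the clamp loader that places the PCNA ring on DNA during replication and repair. Kng1 and Kng2 encode kininogens, plasma proteins made mainly by the liver from which kallikreins release bradykinin, and the mouse carries both as close copies. Adipoq encodes adiponectin, a hormone secreted by adipocytes, and serves here as the reference gene.

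In the assembly NCBIM37, Adipoq lies on the plus strand at chr16:23146609-23158101. The nearest member is Rfc4, on the minus strand at chr16:23114016-23127810, which leaves 18798 bases between them. Eif4a2 follows on the plus strand at chr16:23107517-23114209, then Kng1 on the plus strand at chr16:23057938-23082141 and Kng2 on the minus strand at chr16:22985927-23029174. Together the 4 genes span 141884 bases, all on the same side of Adipoq. Eif4a2 and Rfc4 meet tail to tail, and 194 bases at their ends are exonic in both on opposite strands. Shared 31-base words were searched in 7 transcripts of Eif4a2, 4 of Rfc4, 5 of Kng1 and 5 of Kng2. These came from a set of protein-coding sequences, so noncoding genes and part of the annotated forms were not searched. Of the distinct words in these Eif4a2 transcripts, 4.98% also occur on the opposite strand in Rfc4, and for Rfc4 the share is 10.35% in Eif4a2. The libraries keep the strand of the RNA, and no searched word of Eif4a2 or Rfc4 occurred on the same strand in another gene of this set. For the kininogens the sharing is larger, with 25.36% of the words of Kng1 found in Kng2 and 30.7% of those of Kng2 found in Kng1, so reads could be split between this pair.

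The promoters are shown because the 2 members with the highest levels in iWAT start from a different kind of sequence than Adipoq. Each runs from 250 bases before to 50 bases after the RefSeq start, 5′ to 3′ in the direction of transcription, in the assembly GRCm38.p6, and 3 of the 4 members have an entry. Capitals mark the motifs searched on both strands, which were the TATA box TATAAA, the CCAAT box CCAAT, the GC box GGGCGG, the ETS core CCGGAAGT and the CRE half-site TGACGT. The regions are chr16:23107218-23107517 on the plus strand for Eif4a2, chr16:23127681-23127980 on the minus strand for Rfc4 and chr16:23146286-23146585 on the plus strand for Adipoq.
Eif4a2: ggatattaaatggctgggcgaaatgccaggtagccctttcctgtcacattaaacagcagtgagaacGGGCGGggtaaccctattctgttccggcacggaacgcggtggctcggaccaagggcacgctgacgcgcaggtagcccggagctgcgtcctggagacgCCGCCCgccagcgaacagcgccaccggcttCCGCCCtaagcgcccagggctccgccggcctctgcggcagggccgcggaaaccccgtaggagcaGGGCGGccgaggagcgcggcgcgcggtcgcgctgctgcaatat
Rfc4: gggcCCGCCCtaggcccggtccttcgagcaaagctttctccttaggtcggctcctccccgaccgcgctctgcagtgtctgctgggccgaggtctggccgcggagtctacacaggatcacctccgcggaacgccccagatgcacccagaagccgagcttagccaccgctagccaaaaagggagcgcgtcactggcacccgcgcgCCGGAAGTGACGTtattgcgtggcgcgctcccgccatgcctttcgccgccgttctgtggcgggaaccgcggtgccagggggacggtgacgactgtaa
Adipoq: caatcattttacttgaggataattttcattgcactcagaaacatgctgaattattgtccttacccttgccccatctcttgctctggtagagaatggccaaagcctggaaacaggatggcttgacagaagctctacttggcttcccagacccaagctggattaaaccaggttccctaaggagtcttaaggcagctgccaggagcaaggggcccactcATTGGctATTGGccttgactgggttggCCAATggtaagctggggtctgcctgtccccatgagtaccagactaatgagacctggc
The Eif4a2 promoter held 36 CpG dinucleotides at a GC content of 67.7%, and that of Rfc4 held 34 at 67.3%, against medians of 7 and 52.7% over 32851 RefSeq promoters of this length. The Adipoq window held 0 CpG dinucleotides at a GC content of 50%, and that of Kng2 held 2 at 45.3%. GC boxes were matched 4 times in the Eif4a2 window and once in that of Rfc4, and 35.66% of all promoters held one. The Rfc4 window also held an ETS core, found in 3.89% of promoters, and a CRE half-site, found in 7.51%, which lie within 1 run of capitals and share 1 base. The Adipoq window held 3 CCAAT boxes and none of the other motifs, and 37.41% of promoters held a CCAAT box. No TATA box was matched in these windows or in that of Kng2, which held none of the 5 motifs, while 13.62% of all promoters held a TATA box. These matches describe letters and were not tested as sites.

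As a check of the tissue and of the knockout, summed white adipocyte markers ran from 34529 to 77226 TPM in the 20 libraries, where TPM is a relative abundance corrected for transcript length. Tmem120a lay between 57.9 and 196 TPM in controls and between 21.5 and 89.7 TPM in knockout mice, so that the genotypes overlapped at the level of the gene sum. The estimated counts of a library summed to 54605101 at the lowest and 92387737 at the highest. Markers of other cells varied, and the summed level of 25 skeletal muscle fibre genes ranged from 153 to 5667 TPM. In bulk tissue fewer cells of a type and less RNA per cell cannot be told apart.

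Eif4a2 was the most abundant of the 4 members and was higher in TPM in every knockout library than in every control library. On LFD the controls measured 376, 331, 326, 383 and 386 TPM, and the knockout mice 514, 509, 425, 640 and 587 TPM. On HFD the controls measured 273, 316, 387, 296 and 299 TPM, and the knockout mice 584, 493, 523, 627 and 469 TPM. In TPM no library of one genotype reached into the range of the other on either diet, or over both diets together. In estimated counts this did not hold over both diets. Knockout replicate 21 on HFD had 25269 counts in a library of 78961218, and control replicate 4 on LFD had 26098 in one of 75022219. The means were 361 ± 29.4 in controls and 535 ± 82.2 in knockout mice on LFD, and 314 ± 43.5 and 539 ± 65.5 on HFD (TPM, SD, n = 5 each), which are ratios of 1.48 and 1.72. The log2 fold change of knockout over control, fitted with edgeR on counts, was 0.47 ± 0.15 on LFD and 0.80 ± 0.13 on HFD (SE). The effect on HFD minus that on LFD was 0.33 ± 0.20 (SE), and was not tested. In order of mean level the groups ran from control on HFD through control on LFD to knockout on LFD and knockout on HFD, and the first pair and the last pair of neighbours overlapped.

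Rfc4 was expressed at a far lower level than Eif4a2 and showed the same separation in TPM. On LFD the controls measured 9.60, 8.78, 8.04, 9.85 and 7.70 TPM, and the knockout mice 15.8, 13.2, 13.97, 15.5 and 19.01 TPM. On HFD the controls measured 10.5, 8.50, 10.6, 11.6 and 7.13 TPM, and the knockout mice 13.1, 21.4, 15.7, 12.96 and 14.1 TPM. In TPM the lowest knockout library lay above the highest control library on each diet and over both together. On HFD the gap between them was narrow, from 11.6 to 12.96 TPM. In estimated counts the genotypes overlapped on HFD. Knockout replicate 21 had 469 counts in a library of 78961218, and control replicate 14 had 486 in one of 75888374. The means were 8.80 ± 0.939 and 15.5 ± 2.23 on LFD, and 9.66 ± 1.80 and 15.4 ± 3.48 on HFD (TPM, SD, n = 5 each), with ratios of 1.76 and 1.60. The log2 fold change was 0.72 ± 0.20 on LFD and 0.66 ± 0.23 on HFD (SE), and the 2 effects differed by -0.06 ± 0.30 (SE, HFD minus LFD). These values rest on 243 to 741 estimated counts per library, against 14214 to 41483 for Eif4a2.

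**Figure D1:**
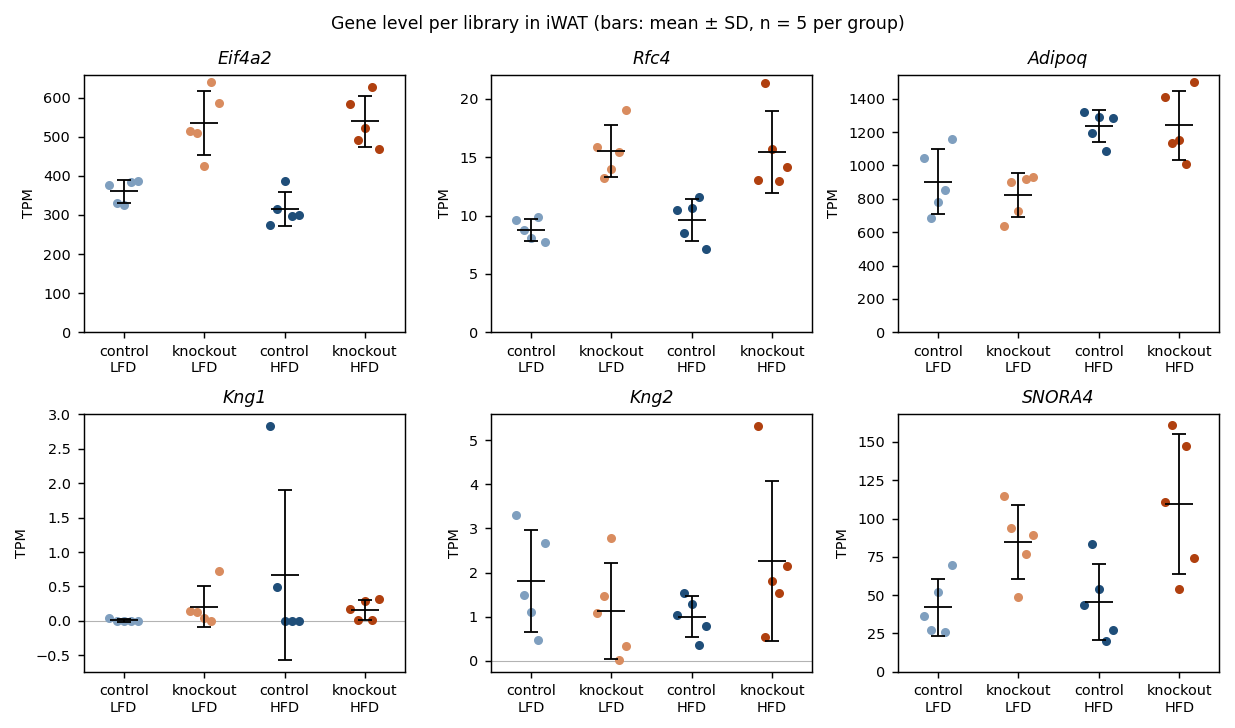
TPM (vertical axes, each from 0 or just below) of the 4 members, of Adipoq and of SNORA4, a small RNA gene inside Eif4a2, in each library of the 4 groups. Points are libraries and bars show the mean ± SD of 5. Eif4a2 and Rfc4 lie higher in all knockout libraries than in all controls, while Adipoq, Kng1 and Kng2 overlap between genotypes.

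Such separation in TPM was rare among all genes. On HFD 0.538% of 15228 genes had every knockout library above every control, on LFD it was 1.30% of 15717, and both held for 0.0337% of 14832 genes tested on each diet. These last were 5 genes, of which 2 were Eif4a2 and Rfc4 and the other 3, Pus7l, Ptplad1 and Gm11868, lie on other chromosomes. With all 10 knockout libraries set against all 10 controls regardless of diet, 0.0193% of 15574 genes were separated in this direction, namely Eif4a2, Rfc4 and Gm11868. Since the choice of members rested on this contrast, nothing further is read from the count.

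Kng2 was low and did not separate. On LFD the controls measured 3.30, 1.49, 1.11, 0.478 and 2.66 TPM, and the knockout mice 1.08, 1.46, 2.78, 0.0154 and 0.324 TPM. On HFD the controls measured 1.04, 1.55, 1.28, 0.344 and 0.790 TPM, and the knockout mice 5.34, 0.529, 1.81, 1.53 and 2.15 TPM. The genotypes overlapped on both diets, and the log2 fold change was -0.76 ± 0.86 on LFD and 1.23 ± 0.60 on HFD (SE). Over both diets it was 0.23 ± 0.61. Knockout replicate 17 on HFD, the highest library, carried much of this, and without it the value was 0.61 on HFD and -0.12 over both diets. On LFD the value was -0.43 without control replicate 1, -0.44 without knockout replicate 9 and -1.37 without knockout replicate 8.

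Kng1 was close to absent. It had at most 3 estimated counts in 11 of 20 libraries, and 146 of its 308 counts in all libraries came from control replicate 11 on HFD, at 2.84 TPM. The next highest levels were 0.725 TPM in knockout replicate 10 on LFD and 0.487 TPM in control replicate 12 on HFD. No fold change was fitted, since the mean of 0.260 TPM was below the 0.5 TPM required for a test. Among the 15 hepatocyte markers examined, 10 had their highest level in control replicate 11 on HFD, among them Ahsg at 1.86 TPM, Fga at 0.960 TPM and Ttr at 2.73 TPM, picked as examples after their values were seen. In this library 0 of the 15 markers were at or below 3 counts, against 4 to 11 of them in the other 19. More abundant markers peaked elsewhere. Alb was highest in control replicate 5 on LFD, at 62.2 TPM against 58.1 in control replicate 11. Fgg and Fgb were highest in knockout replicate 7 on LFD, at 47.5 and 18.3 TPM against 3.94 and 2.26. The summed markers were highest there too, at 110 TPM against 92.8, while Kng1 measured 0.126 TPM. The part of liver transcripts in the Kng1 value was not tested. Control replicate 11 on HFD measured 1.04 TPM of Kng2, near the middle of its group.

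Of the 4 members Eif4a2 and Rfc4 were thus separated in TPM, in values on which they were chosen. Kng2 overlapped, and Kng1 was too low for a difference to be detectable at this depth. Adipoq also overlapped between genotypes. It lay between 687 and 1156 TPM in controls and between 638 and 928 TPM in knockout mice on LFD, and between 1087 and 1323 TPM and between 1006 and 1502 TPM on HFD. The log2 fold change of knockout over control was -0.22 ± 0.19 on LFD and 0.01 ± 0.13 on HFD (SE), with adjusted p = 0.933 and 0.999 by edgeR's quasi-likelihood test over all genes.

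Eif4a2 has 23 annotated transcripts in the table, and 14 of them reached a mean of 1 TPM. Of these 14, the mean was higher in knockout mice for 12 on HFD and for 10 on LFD, and none was lower in every knockout library than in every control. The transcript Eif4a2-002 (ENSMUST00000077605), which is protein coding, measured 60.9 to 86.7 TPM in controls and 104 to 149 TPM in knockout mice on HFD. On LFD it measured 66.0 to 81.6 TPM in controls and 103 to 133 TPM in knockout mice, again without overlap. A transcript with a retained intron, Eif4a2-016 (ENSMUST00000148085), was likewise separated on both diets, at 27.4 to 45.6 TPM against 57.3 to 79.6 TPM on HFD and 35.4 to 44.2 TPM against 52.4 to 101 TPM on LFD. These 2 were the only ones of the 14 that were separated on both diets, with 3 separated on HFD and 5 on LFD. The share over all transcripts was not computed and Eif4a2 was chosen with this contrast in view, so nothing is read from these counts. The most abundant, Eif4a2-006 (ENSMUST00000131871), annotated as a target of nonsense-mediated decay, averaged 88.2 TPM in controls and 165 TPM in knockout mice on HFD, and 103 and 146 TPM on LFD, with overlap on both diets.

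Summed by annotated class, the mean of Eif4a2 transcripts was higher in knockout mice in each of 3 classes on both diets. These sums split the genotype values on which Eif4a2 was chosen. Protein-coding transcripts averaged 111 ± 27.5 TPM in controls and 147 ± 17.6 TPM in knockout mice on LFD, and 81.2 ± 7.77 and 153 ± 29.0 TPM on HFD (SD, n = 5). Transcripts of the nonsense-mediated decay class averaged 129 ± 11.2 and 192 ± 24.5 TPM on LFD, and 128 ± 26.6 and 209 ± 34.8 TPM on HFD. Transcripts with retained introns averaged 120 ± 25.0 and 197 ± 56.8 TPM on LFD, and 105 ± 18.1 and 177 ± 39.0 TPM on HFD. On HFD all 3 classes were separated between genotypes, with ratios of 1.89, 1.63 and 1.69 in this order. On LFD only the decay class was, at a ratio of 1.49. The coding and retained intron classes overlapped on LFD, at ratios of 1.32 and 1.63. No share over other genes was computed, and nothing is read from these separations. The share of the gene that was protein coding was 26.0 ± 1.80% in controls and 28.5 ± 4.34% in knockout mice on HFD, and 30.8 ± 6.44% and 27.7 ± 3.23% on LFD. Transcripts of 1 gene share most of their reads, which makes each split an estimate, and these libraries were made from total RNA, in which unspliced forms are kept.

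**Figure D2:**
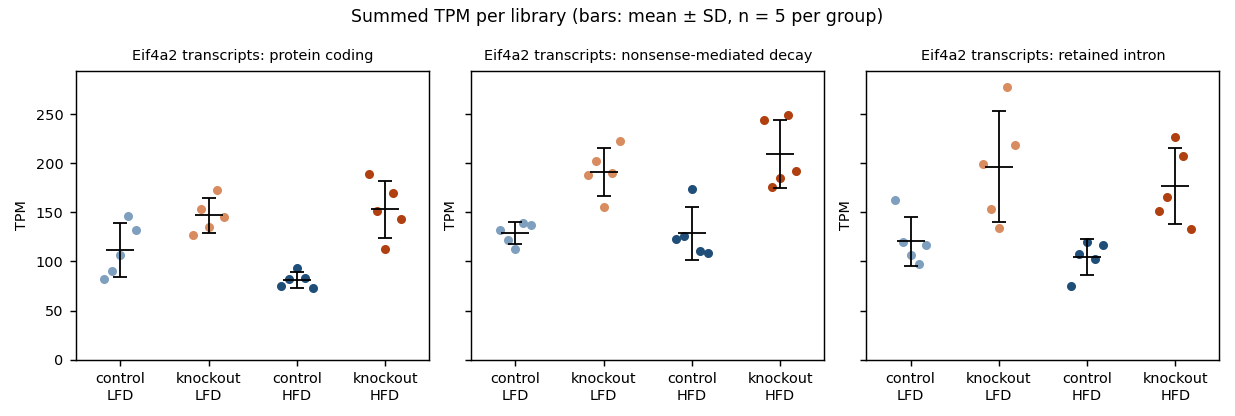
Summed TPM of Eif4a2 transcripts annotated as protein coding, as targets of nonsense-mediated decay and with a retained intron, in each library (points) with the mean ± SD of 5 (bars). On HFD all knockout libraries lie above all controls in each class, in values on which Eif4a2 was chosen. On LFD the coding and retained intron classes overlap.

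For Rfc4 1 of 5 transcripts, Rfc4-001 (ENSMUST00000023598), reached a mean of 1 TPM. It measured 7.13 to 11.3 TPM in controls and 12.6 to 21.4 TPM in knockout mice on HFD, and 7.70 to 9.85 TPM and 11.1 to 19.01 TPM on LFD, again without overlap. For Kng2 1 of 5 transcripts, Kng2-002 (ENSMUST00000115349), reached that mean, and for Kng1 0 of 6 did.

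The annotation places 24 other genes within 500 kb of Adipoq, of which 6 were expressed highly enough to be tested over both diets. None of the 6 was called between genotypes at an adjusted p under 0.1 by edgeR's quasi-likelihood test, in a comparison in which 0.0385% of 15574 genes were called, and 1 of them had an unadjusted p under 0.05. DESeq2 and limma also called 0 of them. Tbccd1 and Dnajb11, which lie beyond Kng2 on its side, had log2 fold changes of -0.04 ± 0.08 and -0.06 ± 0.08 over both diets (SE). On the other side of Adipoq, St6gal1, a sialyltransferase gene, was at 0.12 ± 0.12, Masp1, a complement protease gene, at -0.82 ± 0.46 and the interferon-induced Rtp4 at 0.02 ± 0.18 (SE). The 18 genes too low to test were Dgkg, Crygs, Ahsg, Fetub, Hrg, Gm6493, 2 genes named U6, Snord2, 2 genes named SNORA63, Snora81, B630019A10Rik, Gm6630, Gm15746, BC106179, 7SK and Rtp1. Their means over the 20 libraries lay at or below 0.383 TPM.

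The gene with the unadjusted p under 0.05 was SNORA4, which guides pseudouridylation of ribosomal RNA and lies inside Eif4a2 on the same strand. On LFD the controls measured 36.4, 27.1, 51.8, 25.8 and 69.8 TPM, and the knockout mice 115, 94.1, 49.0, 76.6 and 89.3 TPM. On HFD the controls measured 43.2, 83.1, 53.8, 19.8 and 27.0 TPM, and the knockout mice 111, 161, 54.2, 147 and 74.4 TPM. The genotypes overlapped on both diets. The log2 fold change over both was 1.10 ± 0.31 (SE), with adjusted p = 0.379 by edgeR. Reads of the small RNA and of the Eif4a2 sequence around it cannot be told apart in full. Its test is therefore not independent of the values seen when Eif4a2 was chosen. Snord2, Snora81 and the SNORA63 genes, which also lie inside Eif4a2, had means between 0 and 0.231 TPM.

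**Figure D3:**
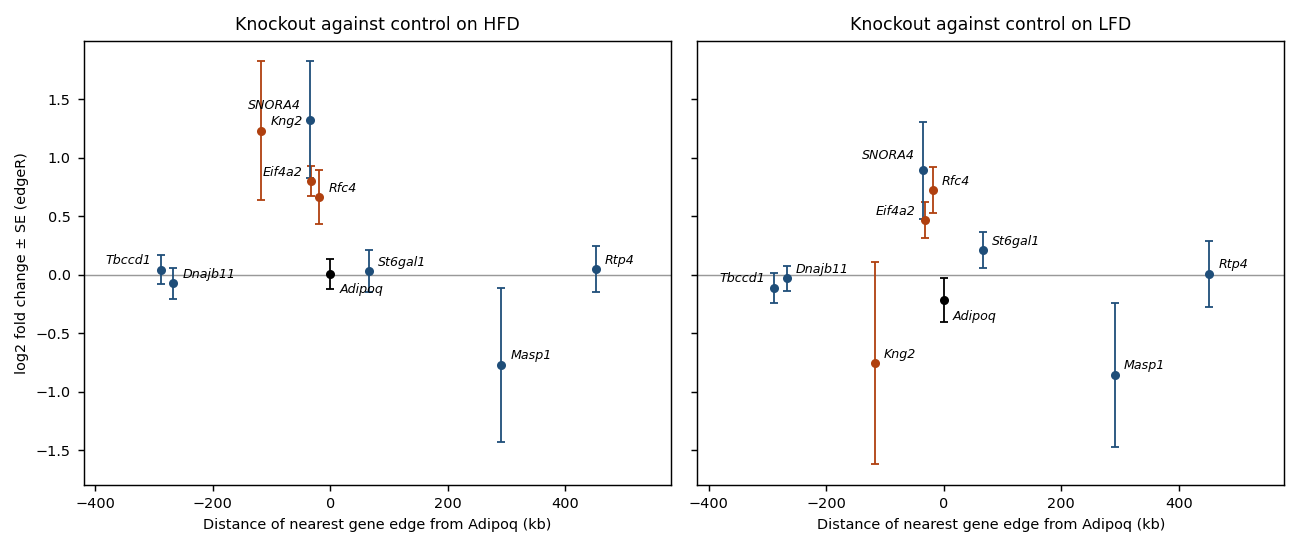
Log2 fold change of knockout over control (vertical axis, edgeR, bars ± SE) for the tested genes near Adipoq against the distance in kb between the nearest edges of the gene and of Adipoq (negative towards Kng2), on HFD and on LFD. Members are red, Adipoq black and other genes blue. Eif4a2, Rfc4 and SNORA4 lie above 0 on both diets, St6gal1 and Rtp4 do too but nearer to 0, and Kng2 lies above 0 on HFD and below it on LFD.

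The diet comparison was not used to choose the genes, although the same libraries enter both comparisons. Low control values on HFD would also widen the genotype difference on HFD. The diet tests of Eif4a2 and Rfc4 are therefore not independent of the choice. In control mice Eif4a2 was lower on HFD than on LFD, with a log2 fold change of -0.45 ± 0.12 (SE) and adjusted p = 0.0595 by edgeR, where 9.32% of 15311 genes were called. In TPM the means were 361 and 314, with 4 of 5 HFD libraries below all LFD libraries and 1 above them. The call was lost with limma on log2(TPM + 1), where the value was -0.20 and adjusted p = 0.323, and in other fits given with the closing observations. Summed fibre genes also differed with diet in controls, at 198 to 5667 TPM on LFD and 153 to 269 TPM on HFD. Without control replicate 5 on LFD, which had the highest fibre sum, the value for Eif4a2 was -0.45 with adjusted p = 0.115. In knockout mice Eif4a2 had a log2 fold change of -0.12 ± 0.16 (SE) with adjusted p = 0.759, where 9.40% of 15705 genes were called. The difference between the diet effects is the same quantity as the difference of genotype effects above, and was not tested.

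Rfc4 did not pass the diet test in either genotype, with log2 fold changes of -0.09 ± 0.19 in control and -0.15 ± 0.23 in knockout mice (SE) and adjusted p = 0.843 and 0.795 by edgeR. Kng2 had values of -1.10 ± 0.50 in control and 0.90 ± 0.92 in knockout mice (SE), with adjusted p = 0.240 and 0.659 by edgeR. Thus 1 of the 3 members tested was called in control mice and 0 of 3 in knockout mice. Of all genes tested 9.32% and 9.40% were called, and nothing is read from these counts. The 1 call held in 2 of 6 alternative fits and in 5 of 10 fits with a library left out. Adipoq had values of 0.25 ± 0.17 in control and 0.47 ± 0.16 in knockout mice (SE), with adjusted p = 0.446 and 0.123.

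Cell type markers moved with genotype in part. White adipocyte markers summed to 40019 to 50432 TPM in controls and 34529 to 46295 TPM in knockout mice on LFD, where 3 of 5 knockout libraries lay below all controls, and to 54030 to 77226 TPM and 52305 to 70041 TPM on HFD, where 2 of 5 did. Over both diets all 15 of these markers had log2 fold changes below 0, from -0.39 to -0.06 with a median of -0.20 against -0.01 for all genes, and 0 were called by edgeR. Their part in the values of Eif4a2 and Rfc4 was not tested. On HFD the summed fibre genes ran from 153 to 269 TPM in controls and from 249 to 2484 TPM in knockout mice, and 4 of 5 knockout libraries lay above all controls. Knockout replicate 21 on HFD had a fibre sum of 249 TPM, within the range of the controls, the highest Tmem120a level of the knockout libraries at 89.7 TPM, and the lowest Eif4a2 level of its group at 469 TPM, which was above all 10 controls. Control replicate 5 on LFD had the highest fibre sum of all libraries, 5667 TPM, with Eif4a2 at 386 TPM. On LFD the fibre sum was 158 TPM in knockout replicate 10, below all LFD controls, with Eif4a2 at 587 TPM. Other libraries were high in both. Knockout replicate 9 on LFD had the highest Eif4a2 level of all, 640 TPM, with a fibre sum of 1858 TPM. Knockout replicates 17 and 20 on HFD had fibre sums of 2484 and 1447 TPM, with Eif4a2 at 584 and 627 TPM. The libraries named here were picked after their values were seen. The part of muscle transcripts in the Eif4a2 values was not tested.

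For Rfc4 the corresponding markers are those of cycling cells, since clamp loaders serve replication. Their summed level on LFD ran from 70.8 to 91.7 TPM in controls and from 114 to 190 TPM in knockout mice without overlap. On HFD it ran from 109 to 155 TPM in controls and from 100 to 152 TPM in knockout mice, with a ratio of means of 1.01. Of the 18 cycling cell markers 0 were called between genotypes over both diets, and their median log2 fold change was 0.30, against -0.01 for all genes tested. Rfc4, chosen with this contrast in view, was separated on both diets, and the part of cycling cells in its values was not tested. Lymphocyte markers overlapped between genotypes on both diets, with sums of 13.4 to 282 TPM on LFD and 39.7 to 247 TPM on HFD. Mammary and skin epithelium markers summed to 275 to 692 TPM on LFD, where 4 of 5 knockout libraries lay below all controls, and to 311 to 676 TPM on HFD, where 2 of 5 lay above them.

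**Figure D4:**
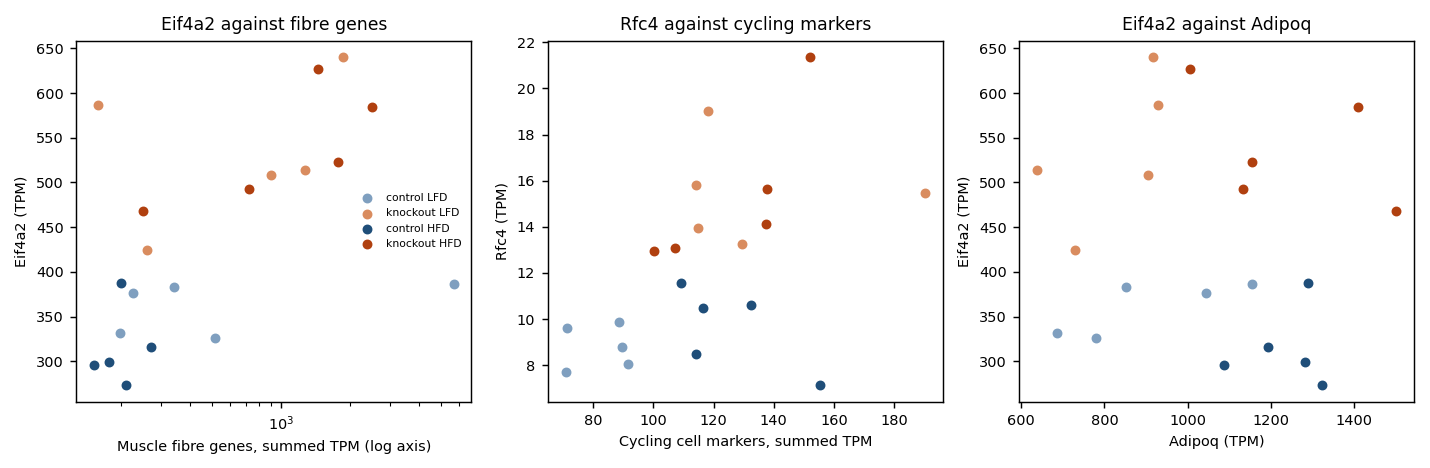
Eif4a2 against the summed muscle fibre genes (log axis) and against Adipoq, and Rfc4 against the summed cycling cell markers, all in TPM, with 1 point for each of 20 libraries. In each panel all knockout libraries lie above all controls on the vertical axis, in values on which Eif4a2 and Rfc4 were chosen. On the horizontal axis the genotypes overlap, except for the cycling sums on LFD. The part of these quantities in the separation was not tested.

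Within a genotype, 8 relations were examined over 10 mice each after subtraction of the diet means from log2(TPM + 1), by permutation within diets. Eif4a2 and Rfc4 had Pearson r = 0.16 in controls (permutation p = 0.748, adjusted p = 0.855, Spearman rho = 0.03, permutation p = 0.952) and r = -0.04 in knockout mice (permutation p = 0.902, adjusted p = 0.902, rho = -0.07, permutation p = 0.868). Without the 2 mice farthest from the median, r was 0.24 and -0.03. Eif4a2 and Adipoq had r = 0.44 in controls (permutation p = 0.137, adjusted p = 0.545, rho = 0.48, permutation p = 0.186) and r = 0.14 in knockout mice (permutation p = 0.717, adjusted p = 0.855, rho = 0.08, permutation p = 0.843). Without the 2 farthest mice these were 0.29 and 0.50. None of these passed, and a relation between the pair of neighbours within a genotype was not detected with 10 mice.

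Eif4a2 and the fibre sum had r = 0.24 in controls (permutation p = 0.541, adjusted p = 0.855, rho = 0.16, permutation p = 0.659) and r = 0.51 in knockout mice (permutation p = 0.172, adjusted p = 0.545, rho = 0.54, permutation p = 0.141). Without the 2 farthest mice r was -0.16 and 0.81. Rfc4 and the cycling sum had r = -0.42 in controls (permutation p = 0.273, adjusted p = 0.545, rho = -0.18, permutation p = 0.631) and r = 0.40 in knockout mice (permutation p = 0.269, adjusted p = 0.545, rho = 0.58, permutation p = 0.129). Without the 2 farthest mice r was -0.30 and 0.17. After adjustment over the 8 relations the lowest value for rho was p = 0.496, again by permutation.

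The genes whose residual pattern over the 20 libraries was most like that of Eif4a2, after subtraction of the group means from log2(TPM + 1), were Zfp167 at r = 0.80, Sft2d3 at 0.79, Hibch at 0.76, Ppm1k at 0.76 and Alkbh1 at 0.75. For Rfc4 they were Zfp54 at r = 0.82, Slc35f3 at 0.80, Rpap2 at 0.79, Pls1 at 0.79 and Prrg4 at 0.78. Among 13975 genes Rfc4 ranked 5271 in likeness to Eif4a2, at r = 0.04, and Adipoq ranked 2075, at r = 0.27. The genes listed first for Eif4a2 and Rfc4 are the 5 highest of 13975 each, picked for their size. How high such a maximum runs by chance was not computed, so no relation is read from them. The points are libraries that also share depth and tissue makeup.

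The functional partners of the members were set beside the 0.0385% of all genes that were called by genotype over both diets, a share at which a list of this size would hold no call, so their counts say nothing particular to them. Of 17 genes of the eIF4F machinery 16 were tested over both diets and 0 were called by edgeR, with values from -0.30 to 0.19 and a median of -0.01, against -0.01 for all genes tested. Eif4a1, the paralog of Eif4a2 with the same helicase role, averaged 108 TPM in controls and 112 TPM in knockout mice, a log2 fold change of 0.01 ± 0.08 (SE) with adjusted p = 0.976. Of 11 clamp loader and sliding clamp genes 10 were tested and 0 were called, with values from -0.06 to 0.25 and a median of 0.05. The other subunits of replication factor C lay at -0.02 for Rfc1, 0.00474 for Rfc2, 0.09 for Rfc3 and -0.06 for Rfc5, and Pcna, the clamp they load, lay at 0.25 ± 0.12 (SE). Of 13 genes of the kallikrein-kinin system 6 were tested and 0 were called, with a median of -0.03. Ratios of mean summed TPM, knockout over control on LFD and HFD, were 1.09 and 1.01 for the eIF4F list. They were 1.30 and 1.24 for the clamp list, with 4 of 5 and 2 of 5 knockout libraries above all controls. For the kallikrein-kinin list they were 0.91 and 0.85, and on HFD 4 of 5 knockout libraries lay below all controls and 1 above them. These sums were not tested.

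The partners called by diet, set against 9.32% of all genes in controls and 9.40% in knockout mice, were few, and nothing is read from their number. In control mice Pabpc1, the poly(A)-binding protein that contacts eIF4F, fell from 174 to 120 TPM, a log2 fold change of -0.74 ± 0.19 (SE, adjusted p = 0.0450 by edgeR), and in knockout mice it fell from 220 to 123 TPM, at -0.97 ± 0.13 (adjusted p = 0.00252). It was the 1 gene called of 17 in controls and 1 of 3 called of 16 in knockout mice, where the scaffold gene Eif4g3 also fell at -0.43 ± 0.11 and Eif4h, a cofactor of eIF4A, rose at 0.34 ± 0.11 (SE, adjusted p = 0.0463 and 0.0892). Among the clamp genes 1 of 10 was called in controls, Rad1 of the checkpoint clamp, at -0.49 ± 0.14 (adjusted p = 0.0748), and 0 of 10 in knockout mice. In the kallikrein-kinin list Serpina3n, a protease inhibitor, rose in controls from 60.6 to 216 TPM, at 1.64 ± 0.26 (adjusted p = 0.00598), as the 1 called of 6. In knockout mice it rose from 59.1 to 155 TPM, at 1.25 ± 0.26 (adjusted p = 0.0182), together with Serping1, the inhibitor of plasma kallikrein and C1, at 0.61 ± 0.18 (adjusted p = 0.0733), as 2 of 6.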

How the data were processed

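Stranded libraries of ribosomal RNA-depleted total RNA from 20 iWAT samples were sequenced by the authors as read pairs. The estimated counts and TPM values were made by the authors with Salmon 0.13.1 on Ensembl transcripts of NCBIM37 (mm9) and deposited per transcript without normalization between libraries. STAR 2.5.3 is also named in the submitters' processing notes. The 96533 transcripts were summed per gene with GENCODE vM1, which held 97.72% of them, and counts were rounded. Unspliced RNA and reads shared between paralogs can move such sums.

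The members and all gene lists were chosen with earlier results of these data known. edgeR 4.0.16 (quasi-likelihood test, legacy method, TMM scaling) was fitted to genes that averaged 0.5 TPM or more in the compared libraries, and an adjusted p (Benjamini-Hochberg over all genes tested) under 0.1 counted as a call. Diet was a term in the fit over both diets. DESeq2 1.42.0, the tool of the authors' methods, limma 3.58.1 on log2(TPM + 1) and log2(TPM + 0.1), no filter, offsets for transcript length and leaving out each library were alternatives, and edgeR's newer quasi-likelihood method was added after seeing the data. The fits were tested on simulated data. The labels do not say that libraries came from separate litters or cages, and no batch is given. Relations used 100000 permutations. Named genes were the members, Adipoq, all annotated genes within 500 kb of it, pathway genes called in any comparison, and the 5 genes most like Eif4a2 and Rfc4. The other subunits of replication factor C, Pcna and Eif4a1 were named in addition, after their values were seen. Promoters came from RefSeq. R 4.3.3 and SciPy were used.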

Additional observations from a re-analysis of the deposited data

Results flagged for a closer look

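Dixon's test was run on 44 groups of 5 libraries, for the members, Adipoq and the tested neighbours, and marked 7. Chance marks about 1 in 20 groups of normally distributed values, which those of Kng1 near 0 are not. Kng1 stood apart in control replicate 1 on LFD at 0.044 TPM, where the other 4 were at 0, in knockout replicate 10 on LFD at 0.725 TPM, where the others reached 0.142, and in control replicate 11 on HFD at 2.84 TPM, where the others reached 0.487. With the other 4 at 0 any value is marked, so the mark of control replicate 1 was fixed in advance, and it rests on 4 counts. Dnajb11, a chaperone gene of the endoplasmic reticulum, stood apart in control replicate 2 on LFD at 36.6 TPM against 16.4 to 20.9 in the others, in knockout replicate 9 on LFD at 47.8 TPM against 17.5 to 22.6, and in control replicate 13 on HFD at 56.5 TPM against 21.7 to 28.3. The estimated counts of Dnajb11 did not stand apart in the LFD libraries, at 2596 against 1804 to 2693 and at 1984 against 1952 to 2606, and were 3986 against 2682 to 3152 in the HFD library. Rtp4 stood apart in knockout replicate 8 on LFD at 36.6 TPM against 14.5 to 17.6. No group of Eif4a2, Rfc4, Kng2 or Adipoq was marked.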

How the results depend on the processing

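The genotype effects of Eif4a2 and Rfc4 kept their direction and moved by less than 1 SD of the libraries in every alternative run. The separation of single libraries was counted in TPM only and was not repeated in these runs. For Eif4a2 they lay between 0.77 and 0.80 on HFD and between 0.45 and 0.56 on LFD over the 6 alternatives, and for Rfc4 between 0.62 and 0.67 and between 0.71 and 0.81. With single libraries left out, Eif4a2 lay between 0.74 and 0.87 on HFD and between 0.40 and 0.55 on LFD, and Rfc4 between 0.50, without knockout replicate 18, and 0.77 on HFD and between 0.60 and 0.81 on LFD. Kng2 lay between 0.59 and 1.27 on HFD and between -1.07 and -0.45 on LFD, and with single libraries left out between 0.61 and 1.48 on HFD, between -1.37 and -0.43 on LFD and between -0.12 and 0.45 over both diets. None of the 6 neighbours was called over both diets in any fit, or of the 10 tested within 1 Mb in edgeR.

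The fall of Eif4a2 on HFD in controls was called by DESeq2 (adjusted p = 0.00607) and edgeR's newer method (0.0493). It was not called with limma on log2(TPM + 1) at -0.2041 or on log2(TPM + 0.1) at -0.2047, without the filter at -0.44 or with length offsets at -0.38, and adjusted p was 0.323, 0.323, 0.115 and 0.115 in this order. The limma scale moved the median of all genes to 0.13 and 0.16, and relative to it Eif4a2 lay at -0.34 and -0.36, against -0.42 in edgeR. Leaving out single libraries gave values between -0.51 and -0.37 with adjusted p between 0.0660 and 0.125, and the call was lost without control replicate 3 or 5 on LFD or 11, 12 or 15 on HFD. The cause was not tested. No diet call was gained or reversed for Rfc4 or Kng2.

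Over both diets 6 genes were called by genotype, 32 with DESeq2 and 2 with length offsets, and 4 to 9 with a library left out. By diet, controls had 1427 calls, 2205 with DESeq2, 2139 and 2148 with limma and 780 to 1845 with a library left out, and knockout mice 1476, 2247 with DESeq2 and 753 to 1355. No paired analysis was possible because the labels do not give pairs of mice between groups. Controls were littermates, but the labels do not say which mice shared a litter. Depth limits Kng1, at or below 3 counts in 11 of 20 libraries.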
